A study of Mus musculus with 18 samples.

Results

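Bone-marrow-derived macrophages were profiled for 8 nuclear genes linked to oxygen-regulated remodelling of mitochondria: Mgarp, Ak4, Higd1a, Ndufa4l2, Cox4i1, Cox4i2, Lonp1 and Fam162a. The genes were selected on their levels in these same samples and on what is known of them, so their differences between oxygen 1 and oxygen 20 are given below as a description, with no test. They were found on the arrays by matching the transcript accession of each probe to its RefSeq symbol. All 8 were found, on 9 probes, among 20812 genes tested, and all 8 passed the filter of at least 3 samples well above background. Per the labels, marrow of male C57BL/6J mice aged 8 weeks was grown for 7 days in macrophage colony-stimulating factor (M-CSF), which turns marrow cells into macrophages. The cells were wild type or PHD3-/-, lacking by their label the oxygen-sensing prolyl hydroxylase encoded by Egln3. Each genotype was kept at oxygen 20 with control feeding (called controls below), at oxygen 1 with control feeding, or at oxygen 20 and starved, with 3 samples in each of the 6 groups. The labels give oxygen without a unit, and the sources used here do not say whether cultures or animals were starved. The design text names 3 mice each. Whether samples of different groups came from one mouse is not given, so p-values measure only the spread between these samples. No restriction of the deletion to a cell type is given.

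When oxygen is scarce, the prolyl hydroxylases stop marking hypoxia-inducible factor (HIF) for degradation, and the stabilised factor binds DNA at sites built on the letters ACGTG or GCGTG. In mitochondria its known targets lower oxygen use by the respiratory chain and change how the organelle handles nucleotides, proteins and its own movement. Cytochrome c oxidase, the enzyme that hands electrons to oxygen, exchanges its subunit COX4-1 for COX4-2 in this response, as the protease LON, encoded by Lonp1, removes the first and transcription supplies the second.

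The stretch of 250 bases before the annotated start is shown for the members that matched the RefSeq promoter table (5 of 8), since these are the letters a HIF site would lie in. The sequences run along the gene's strand in build GRCm38.p6, and capitals mark ACGTG or GCGTG on either strand, where a match on the other strand reads CACGT or CACGC. Overlapping matches were each counted. The windows are chr3:51396548-51396797 on the minus strand for Mgarp, chr4:101419039-101419288 on the plus strand for Ak4 (the most upstream of its 4 annotated starts), chr9:121857797-121858046 on the minus strand for Higd1a, chr17:56626904-56627153 on the minus strand for Lonp1 and chr16:36071562-36071811 on the minus strand for Fam162a.
Mgarp: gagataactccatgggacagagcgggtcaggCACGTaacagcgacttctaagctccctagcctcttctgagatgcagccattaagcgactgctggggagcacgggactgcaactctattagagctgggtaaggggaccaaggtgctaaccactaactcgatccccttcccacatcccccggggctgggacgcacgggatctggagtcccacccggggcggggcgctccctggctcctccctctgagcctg
Ak4: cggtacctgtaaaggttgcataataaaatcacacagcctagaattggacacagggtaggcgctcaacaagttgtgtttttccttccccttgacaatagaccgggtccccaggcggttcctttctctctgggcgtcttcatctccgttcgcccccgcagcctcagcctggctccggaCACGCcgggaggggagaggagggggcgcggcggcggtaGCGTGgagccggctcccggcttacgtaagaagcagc
Higd1a: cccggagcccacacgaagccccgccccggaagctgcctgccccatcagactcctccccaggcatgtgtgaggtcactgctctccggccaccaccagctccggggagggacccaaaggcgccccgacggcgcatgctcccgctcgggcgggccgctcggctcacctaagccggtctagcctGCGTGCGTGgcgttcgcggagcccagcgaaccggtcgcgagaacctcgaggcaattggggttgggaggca
Lonp1: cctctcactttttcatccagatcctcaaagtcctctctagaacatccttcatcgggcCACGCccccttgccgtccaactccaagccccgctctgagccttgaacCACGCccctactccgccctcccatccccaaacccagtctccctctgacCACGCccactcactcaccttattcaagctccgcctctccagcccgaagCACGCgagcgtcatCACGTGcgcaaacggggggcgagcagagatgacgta
Fam162a: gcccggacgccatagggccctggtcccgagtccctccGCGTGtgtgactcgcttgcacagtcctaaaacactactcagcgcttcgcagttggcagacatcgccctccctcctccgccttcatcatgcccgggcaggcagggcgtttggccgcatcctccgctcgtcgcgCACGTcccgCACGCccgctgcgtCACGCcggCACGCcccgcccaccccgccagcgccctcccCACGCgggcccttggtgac
Lonp1 and Fam162a held 6 matches each in their windows. Ak4 and Higd1a held 2 each, those of Higd1a overlapping, and Mgarp held 1, which began 219 bases before the start. The Lonp1 window included both strands of 1 palindrome, CACGTG, 36 bases before its start. Of all 32851 windows of this length, 38.6% held at least 1 match and 16.7% held at least 2. The base composition differed too, with 60.4% to 71.2% G or C in the 5 windows against a median of 52.4% over all windows. A match shows only that the letters are present. The remaining members, Ndufa4l2, Cox4i1 and Cox4i2, are named only.

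The arrays were single-channel Agilent scans, 20 in all on 5 slides, with 2 samples hybridised on 2 arrays each. Levels below are log2 processed signal minus that of the 75th percentile of each array, so 0 is that percentile, and 1 unit is a 2-fold change. Probes differ in brightness, so a level is compared only between samples for 1 gene. Between 56.1% and 65.4% of the spots of an array were well above background and none was saturated. Macrophage markers were present, with 10 of 11 well above background in each of the 18 samples and Cd163 in no sample. The defining markers Cd3d and Cd79a of lymphocytes, and Mcpt8, Fcer1a and Epx of granulocytes and mast cells, were well above background in none of the 18 samples. The Egln3 probe read 6.35 higher at oxygen 1 in wild type and 6.81 higher in the knockout on the log2 scale (limma adjusted p 7.49e-13 and 2.77e-13). Knockout minus wild type for Egln3 was -0.49 in controls, -0.04 at oxygen 1 and -0.10 when starved, with limma adjusted p of 1.00 in each. The sources used here do not place the probe relative to the deleted part, so this checks nothing about the genotype.

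At oxygen 1 the signal was at least 2-fold above that of controls for 5 of 8 genes in wild-type cells, namely Mgarp, Ak4, Fam162a, Higd1a and Ndufa4l2. In knockout cells Lonp1 joined them, making 6 of 8, though its log2 difference there ran from 0.91 to 1.10 across the alternatives. Over all genes, 8.66% in wild type and 9.03% in the knockout were at least 2-fold higher, but the 8 were chosen by this contrast and nothing is read from the excess. The median difference of the 8 genes was 1.70 in wild type and 1.87 in the knockout on the log2 scale, against 0.028 and 0.047 over all genes. Cox4i1 was the member whose oxygen 1 samples overlapped the controls in both genotypes. In bulk RNA, a change in the share of cells that use a gene and a change in RNA per cell cannot be told apart. Several sums of cell type markers differed between conditions. Summed on the linear scale relative to the 75th percentile, the neutrophil markers (11 measured) ranged from 12.2 to 19.1 in wild-type controls, from 6.55 to 10.3 at oxygen 1 and from 7.63 to 10.03 when starved. The sum for erythroid and megakaryocyte markers (5 measured) was 5.75 to 6.37 in wild-type controls, 12.2 to 15.4 in starved cells and 15.9 to 33.6 at oxygen 1, and that for mast cells, basophils and eosinophils (8 measured) 0.282 to 0.291 and 1.51 to 1.89. Macrophage markers summed to 384.6 to 430.3 in wild-type controls and 463.1 to 490.6 at oxygen 1. In the knockout, controls against oxygen 1 gave 9.89 to 15.97 against 5.73 to 10.2 for neutrophil markers, 6.27 to 7.18 against 16.1 to 32.9 for erythroid and megakaryocyte markers, and 327.5 to 367.2 against 420.9 to 459.0 for macrophage markers. Starved knockout cells gave 6.13 to 9.50 for neutrophil markers, 10.4 to 13.4 for erythroid and megakaryocyte markers, and 348.3 to 384.8 for macrophage markers. Stromal and endothelial markers (8 measured) summed to 4.01 to 4.61 in wild-type controls and 1.95 to 3.18 in starved wild-type cells, and to 3.8 to 4.79 and 2.50 to 3.49 in the knockout, with no overlap in either genotype. In starved wild-type cells, macrophage markers summed to 416.2 to 447.5 and those of mast cells, basophils and eosinophils to 0.213 to 0.248. In the knockout the latter were 0.231 to 0.285 in controls, 0.198 to 0.316 in starved cells and 1.68 to 1.80 at oxygen 1. The part of these shifts in the results was not tested.

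**Figure D1:**
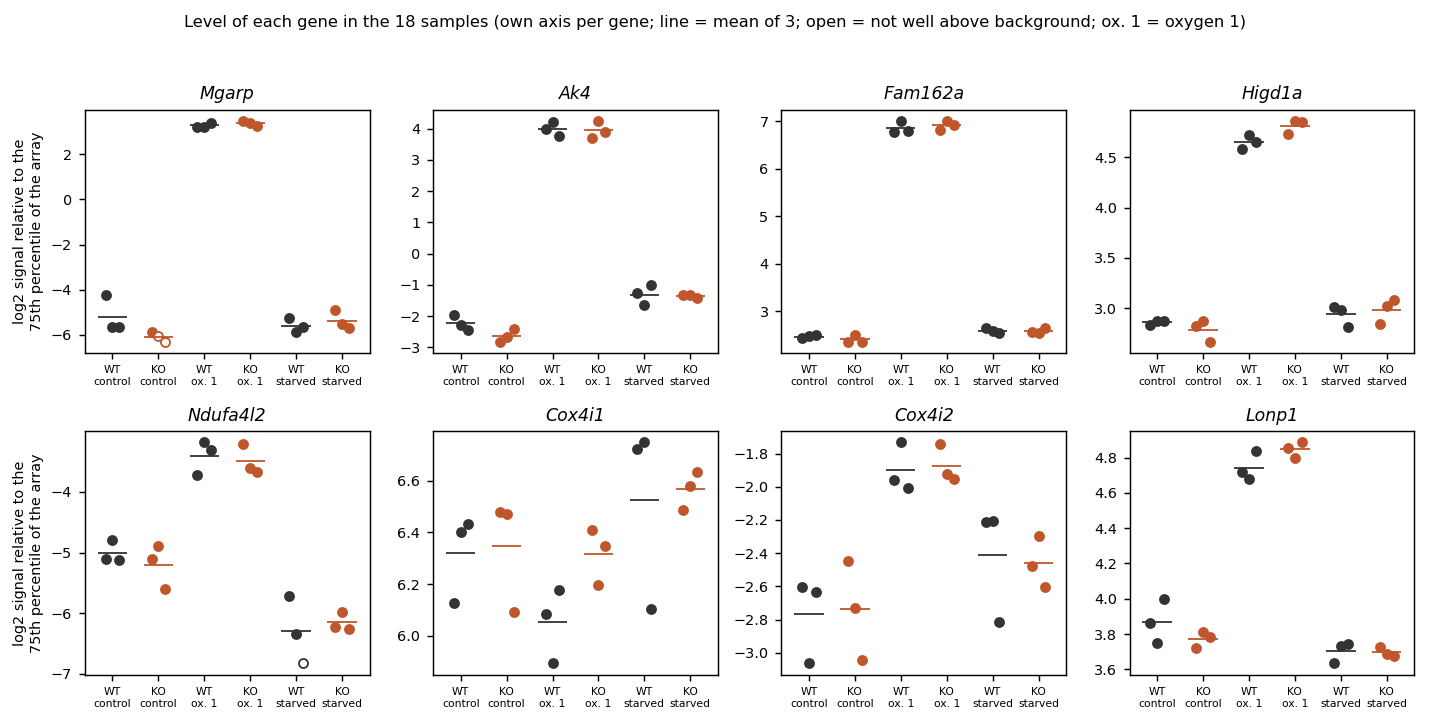
Level of each of the 8 genes in the 18 samples, as log2 signal relative to the 75th percentile of its array, with an axis of its own for each gene, wild type (WT) in black and knockout (KO) in orange. Points are samples, lines are means of 3, and open points are not well above background; Mgarp, Ak4 and Fam162a at oxygen 1 stand far above all other samples, while Cox4i1 stays within 5.89 to 6.75.

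Mgarp, which links mitochondria to the transport machinery on microtubules in neurons, showed the widest range of the members. Wild-type controls read -4.23, -5.68 and -5.67, wild-type samples at oxygen 1 read 3.22, 3.21 and 3.39, and starved wild-type samples -5.24, -5.89 and -5.66. Knockout controls read -5.86, -6.07 and -6.31, with the last pair not well above background, knockout samples at oxygen 1 read 3.48, 3.40 and 3.24, and starved knockout samples -4.92, -5.53 and -5.70. All 6 low-oxygen samples were thus far above the other 12, and their genotypes overlapped, whereas the first wild-type control stood above its partners. As measured, the Mgarp level was 354-fold higher at oxygen 1 in wild type, a log2 difference of 8.47, and 701-fold higher in the knockout, a log2 difference of 9.45. The size of the knockout fold is loose, since it rests on controls of which 1 of 3 was well above background. With normexp background correction, the log2 differences of Mgarp were 6.38 and 6.81. Within slides, the log2 difference was 7.44 in wild type on the 1 slide that held both groups and 9.13 to 9.69 on 3 slides in the knockout.

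Ak4, a mitochondrial adenylate kinase that binds adenine nucleotides but has little kinase activity of its own, came next. Wild-type controls read -1.95, -2.29 and -2.45, oxygen 1 samples 3.99, 4.20 and 3.76, and starved samples -1.25, -1.66 and -1.01. Knockout controls read -2.82, -2.67 and -2.41, oxygen 1 samples 3.71, 4.25 and 3.90, and starved samples -1.33, -1.32 and -1.42. Both genotypes thus showed the same tiers, with controls lowest, starved samples above every control, and oxygen 1 samples above both. The low-oxygen level was 74.2-fold higher in wild type and 96.0-fold higher in the knockout, log2 differences of 6.21 and 6.58 that became 5.55 and 5.93 for Ak4 when its probes were averaged. A second Ak4 probe was well above background only at oxygen 1, and so passed the filter only through the samples in which it was bright. At oxygen 1 it read -3.32, -2.44 and -3.63 in wild-type samples and -3.26, -3.08 and -3.29 in knockout samples, at least 9.93-fold and at least 8.81-fold above the lowest signal that counted as well above background, averaged over the control arrays.

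Fam162a, a mitochondrial protein linked to cell death in low oxygen, was the most uniform of the strongly oxygen-dependent members. Wild-type controls read 2.44, 2.48 and 2.50 and knockout controls 2.36, 2.50 and 2.37. At oxygen 1 the wild-type samples read 6.78, 7.00 and 6.79 and the knockout samples 6.81, 7.01 and 6.92, while all 6 starved samples lay between 2.54 and 2.66. The genotypes overlapped at oxygen 1, at 20.9-fold and 22.7-fold above controls, and the starved samples stood just above the controls of their own genotype.

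Higd1a, a small inner-membrane protein that binds respiratory complexes including cytochrome c oxidase, differed by less. Wild-type controls read 2.83, 2.87 and 2.88 and starved wild-type samples 3.02, 2.98 and 2.82. The wild-type samples at oxygen 1 read 4.59, 4.73 and 4.65, which is 3.47-fold higher. In the knockout, controls read 2.82, 2.87 and 2.67, oxygen 1 samples 4.73, 4.87 and 4.85, and starved samples 2.84, 3.02 and 3.08, so that low oxygen was 4.08-fold higher. No low-oxygen sample came near a sample at oxygen 20 in either genotype.

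Ndufa4l2, a paralog of the cytochrome c oxidase subunit Ndufa4 that is known to lower complex I activity, was ordered otherwise. Wild-type controls read -5.10, -4.79 and -5.13, oxygen 1 samples -3.73, -3.18 and -3.31, and starved samples -5.71, -6.34 and -6.83, the last not well above background. Knockout controls read -5.11, -4.89 and -5.60, oxygen 1 samples -3.21, -3.60 and -3.67, and starved samples -6.23, -5.98 and -6.25. Oxygen 1 samples were thus the highest and starved samples the lowest, with controls between them and no overlap. The low-oxygen level was 3.03-fold higher in wild type and 3.26-fold higher in the knockout. With normexp background correction, which compresses dim probes, the log2 differences were 0.76 and 0.78 for Ndufa4l2 against 1.60 and 1.71.

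Of the pair of genes for subunit IV of cytochrome c oxidase, Cox4i2 was higher at oxygen 1 in both genotypes, while Cox4i1 overlapped the controls. Cox4i1, the common isoform, read 6.13, 6.40 and 6.43 in wild-type controls, 6.09, 5.89 and 6.18 at oxygen 1 and 6.72, 6.75 and 6.10 when starved. In the knockout it read 6.48, 6.47 and 6.09 in controls, 6.41, 6.19 and 6.35 at oxygen 1 and 6.49, 6.58 and 6.63 when starved. These ranges overlapped between controls and each treatment in wild type, and at oxygen 1 in the knockout. The low-oxygen difference of Cox4i1 was -0.27 in wild type and -0.03 in the knockout on the log2 scale. Other scalings lowered both, to -0.50 and -0.29 with quantile normalization, -0.61 and -0.24 with normexp, and -0.51 and -0.25 in the authors' deposited table, while the median of all genes moved by less than 0.1 under each.

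Cox4i2, the isoform associated with low oxygen, read -2.61, -3.07 and -2.64 in wild-type controls, -1.96, -1.73 and -2.01 at oxygen 1 and -2.21, -2.21 and -2.81 when starved. Knockout controls read -2.45, -2.73 and -3.04, oxygen 1 samples -1.74, -1.92 and -1.95, and starved samples -2.47, -2.29 and -2.60. The 6 low-oxygen samples were the highest of the 18 and the starved samples overlapped the controls. The level at oxygen 1 was 1.83-fold higher in wild type and 1.82-fold higher in the knockout, short of 2-fold in both. Taken within each sample, Cox4i2 minus Cox4i1 stood 1.04, 1.46 and 0.91 above the mean of the wild-type controls in the 3 wild-type samples at oxygen 1, where the controls themselves lay from -0.38 to 0.36. In the knockout the same quantity stood 0.93, 0.97 and 0.79 above the mean of the controls, which lay from -0.11 to 0.16. The balance of the isoforms was thus shifted toward Cox4i2 by 1.14 and 0.90 on the log2 scale, with no overlap between the groups. In starved samples the shift was 0.15 in wild type and 0.06 in the knockout, and the groups overlapped.

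Lonp1, the matrix protease named above, read 3.86, 3.75 and 4.0 in wild-type controls, 4.72, 4.68 and 4.84 at oxygen 1 and 3.63, 3.73 and 3.75 when starved. Knockout controls read 3.72, 3.81 and 3.78, oxygen 1 samples 4.86, 4.80 and 4.89, and starved samples 3.73, 3.69 and 3.68. The low-oxygen level was 1.83-fold higher in wild type and 2.11-fold higher in the knockout, and the 6 low-oxygen samples lay above all others.

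Starvation changed 2 of the 8 genes in wild-type cells, where 12.5% of all genes passed the limma threshold of an adjusted p under 0.05, and 2 of 8 in knockout cells, where 13.4% did. They were Ak4, which rose, and Ndufa4l2, which fell, in both genotypes. The genes were selected on levels in these same samples, and the controls are those of the oxygen contrast. These calls and their p-values are therefore a description and no independent evidence. The median difference of the 8 was 0.10 in wild type and 0.21 in the knockout, against 0.01 and 0.02 over all genes. Ak4 rose by 0.92 (95% interval 0.52 to 1.32) in wild type, or 1.89-fold, and by 1.27 (0.87 to 1.67) in the knockout, or 2.42-fold. Its adjusted p by limma was 0.00408 and 0.000318. Averaging the Ak4 probe with its dim second probe, which was not well above background in any of these samples, gave 0.45 with an adjusted p of 0.202 in wild type. Within slides the rise of Ak4 was 0.63 to 1.43 in wild type and 0.99 to 1.61 in the knockout, over 3 slides each.

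Ndufa4l2 was lower in starved cells by a log2 difference of -1.29 (95% interval -1.82 to -0.75) in wild type and -0.95 (-1.49 to -0.41) in the knockout, with limma adjusted p of 0.00306 and 0.0204. This is a 2.44-fold and a 1.93-fold fall, opposite to its direction at oxygen 1. With normexp the differences were -0.32 and -0.26 and neither passed (adjusted p 0.0540 and 0.126). In the knockout the Ndufa4l2 call was also lost without knockout control replicate 1 (adjusted p 0.0643) or 2 (0.0944) and without starved knockout replicate 1 (0.0652) or 3 (0.0682). Within slides the difference ran from -1.70 to -0.61 in wild type and from -1.24 to -0.65 in the knockout, below 0 on every slide.

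The other 6 genes did not pass in either genotype. Mgarp differed by -0.40 in starved wild-type cells (adjusted p 0.517) and by 0.70 in starved knockout cells (0.185). Without wild-type control replicate 1, the sample that stood above its partners, the Mgarp values were 0.08 (adjusted p 0.901) and 0.70, the latter past the threshold at 0.0321. Leaving out that sample cannot move the knockout difference, only the spread that all groups share in the fit. Of the knockout controls, 1 of 3 was well above background for Mgarp, and the knockout difference ran from 0.12 to 0.86 across the alternatives. Cox4i2 differed by 0.36 in wild type (adjusted p 0.270) and 0.28 in the knockout (0.396). Without 3 samples found in earlier work to stand apart, which are wild-type control replicate 1, knockout control replicate 3 and starved wild-type replicate 3, the wild-type difference of Cox4i2 was 0.64 with an adjusted p of 0.0296. Cox4i1 differed by 0.20 and 0.22, Higd1a by 0.08 and 0.20, Fam162a by 0.12 and 0.18 and Lonp1 by -0.17 and -0.08, with adjusted p from 0.193 to 0.697.

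**Figure D2:**
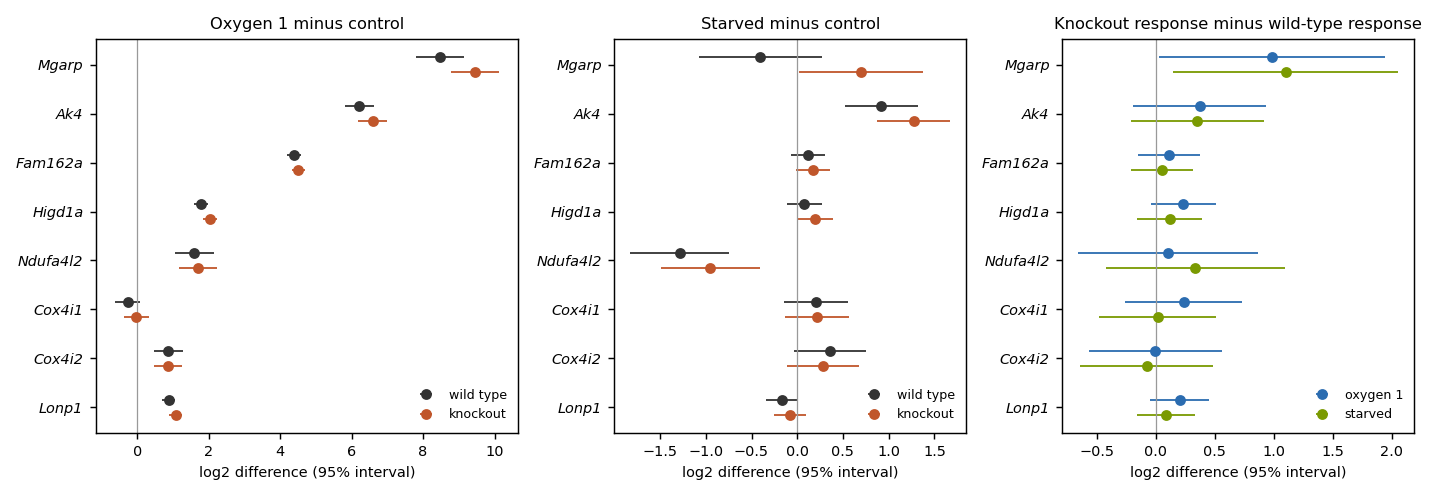
Differences of the 8 genes on the log2 scale with 95% intervals from the fit, for oxygen 1 minus control, starved minus control, and the knockout response minus the wild-type response. Intervals in the left panel are a description, since that contrast chose the genes; in the middle panel Ak4 lies above 0 and Ndufa4l2 below it in both genotypes.

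Knockout and wild-type cells were compared in each condition to ask whether loss of PHD3 moved these genes. None of the 8 passed in controls, where 0% of all genes did, at oxygen 1 (0%) or when starved (0%), by limma over 20812 genes. Unadjusted p under 0.05 was reached by 2 of the 8 in controls, among 291 of all genes, and by 0 at oxygen 1 and when starved, among 359 and 394. Those in controls were Mgarp, at -0.89 (95% interval -1.56 to -0.21, adjusted p 1.00), and Ak4, at -0.40 (-0.80 to -0.00021, adjusted p 1.00), both lower in the knockout. The Mgarp difference was -0.41 without wild-type control replicate 1, and 1 of 3 knockout controls was well above background for this gene. At oxygen 1 the 8 differences lay between -0.09 and 0.26, and when starved between -0.05 and 0.21. The largest at oxygen 1 were those of Cox4i1, 0.26 (-0.09 to 0.61), and Higd1a, 0.16 (-0.04 to 0.36), both with intervals that include 0.

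The genotypes' responses were also compared directly through the interaction term of limma. For low oxygen, 0 of 8 members and 0% of all genes passed, and for starvation 0 of 8 and 0%. At unadjusted p under 0.05 there were 243 and 224 genes in all, with Mgarp the 1 member in each. The response of Mgarp was larger in the knockout by 0.99 (95% interval 0.03 to 1.94) at oxygen 1 and by 1.10 (0.14 to 2.06) when starved, both with an adjusted p of 1.00. These comparisons share their control samples, and of the knockout controls 1 of 3 was well above background for Mgarp. Without wild-type control replicate 1 the Mgarp interactions were 0.51 and 0.62. Across the alternatives they ran from 0.39 to 1.28 and from 0.33 to 1.34. For Ak4 the interactions were 0.37 (-0.20 to 0.94) and 0.35 (-0.21 to 0.92), and for Ndufa4l2 0.11 (-0.66 to 0.87) and 0.34 (-0.43 to 1.10). The narrowest intervals were those of Lonp1, 0.20 (-0.05 to 0.45) at oxygen 1 and 0.09 (-0.16 to 0.34) when starved, followed by Fam162a at 0.11 (-0.15 to 0.38) and 0.06 (-0.21 to 0.32).

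Ordered by mean, both oxygen 1 groups headed the list for 7 of the 8 genes and came last for Cox4i1. Neighbours in that order seldom separated beyond their spread. For Mgarp the 4 groups at oxygen 20 overlapped from one to the next. For Ak4 both starved groups overlapped each other and stood clear of the controls, while for Ndufa4l2 the controls stood clear of the starved groups below them.

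The 8 genes were also set against each other over the 18 samples, as a description in which the oxygen contrast that chose them dominates and all samples share arrays. Pearson r between Mgarp, Ak4, Fam162a, Higd1a and Lonp1 ranged from 0.952 for Ak4 with Lonp1 to 0.996 for Fam162a with Higd1a. Ndufa4l2, which was lower in starved cells, had its highest r with Lonp1 at 0.906 and its lowest of the positive ones with Cox4i2 at 0.663. Cox4i1 ran from -0.122 with Cox4i2 to -0.520 with Lonp1.

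**Figure D3:**
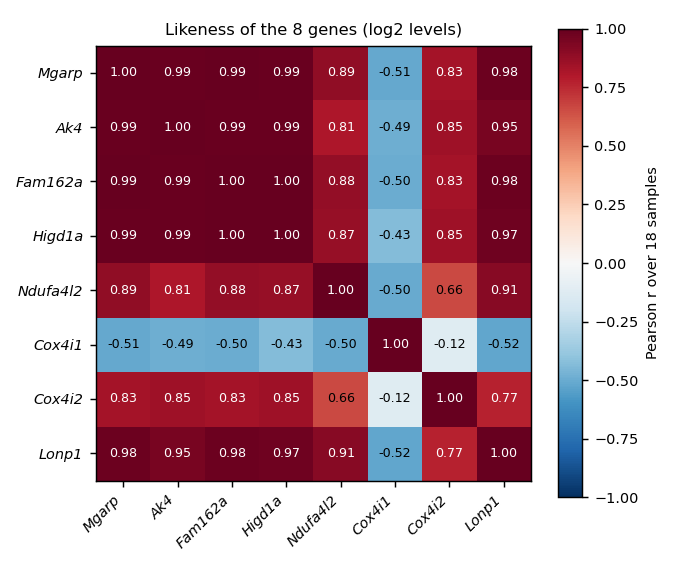
Pearson r of log2 levels over 18 samples for each pair of the 8 genes, from -1 (blue) to 1 (red). Mgarp, Ak4, Fam162a, Higd1a and Lonp1 form a block of high values, and Cox4i1 is negative with every other member.

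Of 12628 named genes with every sample of some group well above background, those most like each member over the 18 samples were as follows. Mgarp was most like Gipr, an incretin receptor (r = 0.997), P4ha2, a collagen prolyl hydroxylase (0.996), and Rnf217 (0.995). Ak4 was most like Prelid2, Egln3 itself and Ankrd37, each at 0.997. Fam162a was closest to Ppp1r3g, a glycogen-targeting phosphatase subunit (0.998), Rnf217 (0.998) and Gys1, muscle glycogen synthase (0.998), and Higd1a to Fam162a (0.996), Gys1 (0.994) and Tubb6, a tubulin (0.994). Lonp1 was nearest Tiparp, a mono-ADP-ribosyltransferase (0.993), Pcgf5 (0.992) and Rcor2 (0.989). Ndufa4l2 was nearest Niban1 (0.991), Cisd3, an iron-sulfur protein of mitochondria (0.971), and Col16a1, a collagen (0.968). The best partners of the Cox4 genes were looser, with Oscar (0.936), Olfr700 (0.934) and Smyd1 (0.927) for Cox4i1 and Pgam2 (0.941), Marchf9 (0.937) and Myct1 (0.937) for Cox4i2.

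Relatives and partners of the 8 genes were then counted in lists grouped by function. The lists were chosen with earlier results of these data known, so their counts and p-values are a description and no independent evidence. At oxygen 1, 38.6% of all genes passed the limma threshold in wild type and 39.8% in the knockout, and at starvation 12.5% and 13.4%, as above. None of the lists held a gene past the threshold in the genotype or interaction comparisons.

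None of the other adenylate kinases or relatives of Higd1a tested, nor Ndufa4, passed the threshold upward at oxygen 1. Of 5 adenylate kinases tested besides Ak4, 0 rose and 2 fell at oxygen 1 in each genotype. They were Ak1, the cytosolic enzyme, at -0.75 in wild type and -1.01 in the knockout (limma adjusted p 0.00894 and 0.00102), and Ak3, of the mitochondrial matrix, at -0.51 and -0.39 (0.00247 and 0.0121). In starved cells Ak3 rose in the knockout by 0.43 (adjusted p 0.0195), a call lost without knockout control replicate 2 or 3 or starved knockout replicate 1 or 2 (adjusted p up to 0.0722). At oxygen 1 the Ak3 call in the knockout was lost without replicate 1 of that group (0.0520). Of 2 relatives of Higd1a, 0 passed in any of these comparisons, with Higd2a at 0.18 and 0.22 at oxygen 1 (adjusted p 0.191 and 0.103). Ndufa4, the paralog of Ndufa4l2, read -0.11 and -0.08 at oxygen 1 (adjusted p 0.522 and 0.661) and 0.10 and 0.25 when starved (0.714 and 0.226).

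Among 26 other cytochrome c oxidase subunits and assembly factors tested, 2 rose and 5 fell at oxygen 1 in wild type and 2 rose and 3 fell in the knockout. Quantile normalization gave 1 up and 9 down in wild type, 1 up and 7 down in the knockout, so the balance of this list depends on scaling. Cox7a1, the heart and muscle isoform of subunit VIIa, rose by 1.91 and 1.97 at oxygen 1 (limma adjusted p 7.07e-08 and 4.46e-08) and by 1.07 and 1.22 when starved (0.000111 and 3.13e-05). Cox5a, a core structural subunit, fell by 0.71 and 0.77 at oxygen 1 (0.000647 and 0.000304), and Cox10, needed for the enzyme's haem, by 0.75 and 0.85 (0.00687 and 0.00275). In starved cells Cox6a2, a muscle isoform, fell by 1.11 and 0.99 (0.00108 and 0.00237). Starvation moved 3 of the 26 in wild type, 1 up and 2 down, and 2 in the knockout, 1 up and 1 down. The third in wild type was Cox14, an assembly factor, at -0.50 (0.0118), which was lost without wild-type control replicate 2 or 3 or starved wild-type replicate 3 (up to 0.0618).

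The other mitochondrial proteases and chaperones were more often lower than higher at oxygen 1. Of 20 tested, 3 rose and 11 fell at oxygen 1 in each genotype, with a median of -0.31 and -0.35, and 0 of 20 passed in starved cells of either genotype. Afg3l2, a subunit of the inner-membrane AAA protease, rose by 1.25 and 1.51 (limma adjusted p 1.15e-06 and 1.61e-07). Htra2, a protease of the intermembrane space, fell by 0.96 and 0.97 (7.87e-06 and 7.14e-06), and Trap1, the mitochondrial HSP90, by 0.87 and 0.96 (0.000161 and 6.28e-05). With the slide as a block, 1 rose and 8 fell in wild type.

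Transport and shape of mitochondria, to which Mgarp is linked, showed smaller changes. Of 6 genes for transport along microtubules, Kif5b, a kinesin motor, rose in wild type at oxygen 1 by 0.36 (limma adjusted p 0.0326), and Rhot2, the anchor MIRO2, fell by 0.41 in wild type (0.00561) and 0.33 in the knockout (0.0181). With the slide as a block neither passed in wild type (0.0698 for Kif5b and 0.0795 for Rhot2), nor Rhot2 in the knockout (0.103). Kif5b was also lost without oxygen 1 replicate 1 or 3 or any 1 of the wild-type controls (up to 0.133), and Rhot2 in the knockout without oxygen 1 replicate 2 or knockout control replicate 1 (up to 0.0788). None of the 6 passed when starved, by limma. Of 18 genes for fusion, fission and cristae, 3 rose and 4 fell at oxygen 1 in wild type and 4 rose and 2 fell in the knockout. Mfn2, which fuses outer membranes, fell by 0.61 in wild type (0.00448) and Mtfp1, a fission factor, by 0.55 (0.021). Chchd6, a cristae protein, rose by 0.62 in the knockout (0.00132), and Micos10, another, by 0.59 and 0.53 (0.0151 and 0.0241), the last calls being lost with quantile normalization (0.0759 and 0.0953). Single samples also decided these calls: Mtfp1 was lost without oxygen 1 replicate 1 or wild-type control replicate 3, and Micos10 without oxygen 1 replicate 2 or wild-type control replicate 3 in wild type and without oxygen 1 replicate 3 or knockout control replicate 1 or 2 in the knockout. Mtfr2, a fission regulator, rose by 0.67 in the knockout (0.00141) with its brightest probe, but averaged over its probes it read -1.29, in the other direction. When starved, 0 rose and 1 fell in wild type and 3 rose and 1 fell in the knockout, with Chchd6 at 0.64 (0.00332), Mtfr2 at 0.56 (0.0153) and Micos10 at -0.56 in wild type (0.0466) and -0.68 in the knockout (0.0174). The Micos10 call in starved wild type was lost in 20 of 28 alternatives, that in the starved knockout without knockout control replicate 3 or starved replicate 2, and that of Mtfr2 without knockout control replicate 1 or starved replicate 1 or 2.

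Of 13 genes for mitochondrial biogenesis, 3 rose and 2 fell at oxygen 1 in each genotype. Ppargc1b, a coactivator of respiratory genes, fell by 1.07 and 0.77 (limma adjusted p 3.81e-05 and 0.000611). Nrf1, a transcription factor for such genes, rose by 0.79 and 0.73 (0.000127 and 0.000226), though not in the knockout when its probes were averaged (0.148). Myc rose by 0.58 and 0.73 (0.0313 and 0.00863) at oxygen 1 and fell by 0.96 and 0.96 in starved cells (0.00438 and 0.00405). The other biogenesis genes called in starved cells were Esrra in wild type at -0.47 (0.0317) and Tfb1m in the knockout at -0.53 (0.0499). The Tfb1m call was lost in 22 of 28 alternatives, and that of Esrra without wild-type control replicate 2 or 3 or any 1 of the starved wild-type samples (up to 0.139). The Myc rise at oxygen 1 in wild type missed the threshold without wild-type control replicate 1 or 3 or oxygen 1 replicate 1 or 2 (0.0542 to 0.107).

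A last list held other mitochondrial genes, grouped as HIF targets without a check of each gene. It was drawn up with results of these samples in view, so its direction is no independent evidence. Of 11 tested, 6 rose and 2 fell at oxygen 1 in each genotype. Bnip3, a mitophagy receptor, rose by 4.48 and 4.66 (limma adjusted p 1.82e-11 and 1.05e-11), Pdk1, which shuts pyruvate out of the citric acid cycle, by 3.15 and 3.36 (4.01e-10 and 1.81e-10), and Bnip3l, the second receptor, by 2.49 and 2.61 (3.03e-11 and 1.75e-11). In starved cells 3 rose and 1 fell in wild type and 2 rose and 1 fell in the knockout. Bnip3l rose by 0.63 and 0.71 (0.000186 and 5.95e-05), Pdk1 by 0.56 in the knockout (0.012) and Hk1, a hexokinase, by 0.54 in wild type (0.0197). The Pdk1 call was lost without knockout control replicate 3 or starved replicate 2 (0.0539 and 0.0547), and the Hk1 call without wild-type control replicate 2 or 3 or starved replicate 1 or 3 (up to 0.0821). Slc25a51, the mitochondrial NAD carrier, read -0.70 and -0.51 (0.00419 and 0.0453), the second call being lost in 15 of 28 alternatives and the first with the filter on all 18 samples (0.333).

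**Figure D4:**
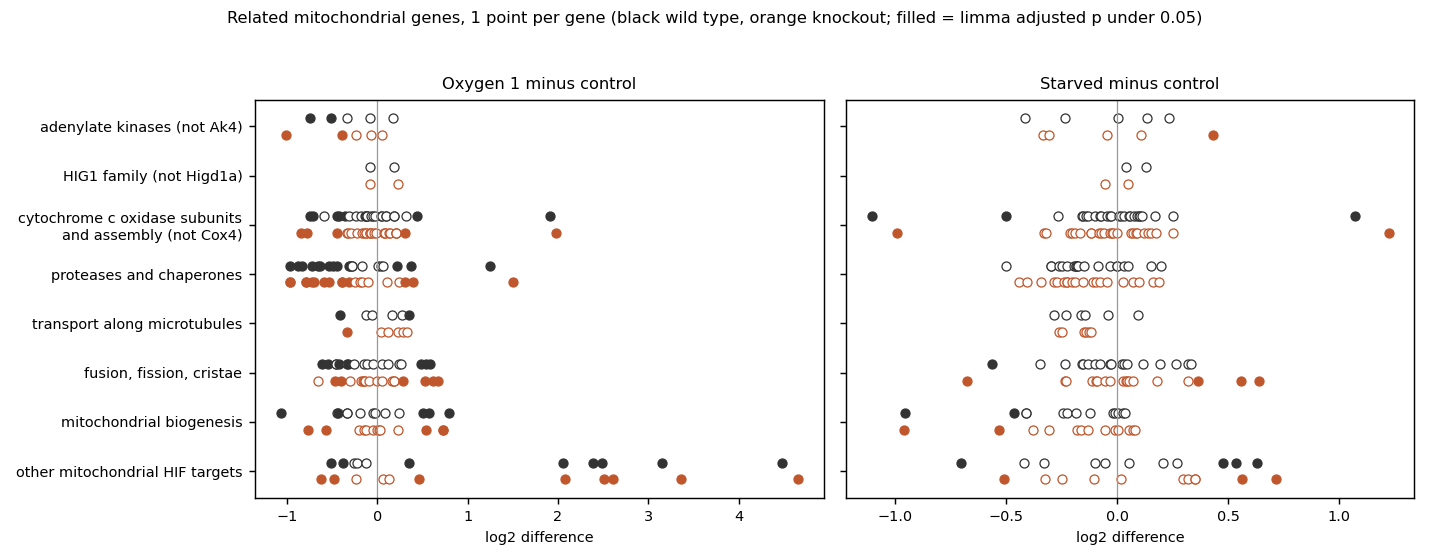
Log2 differences of the related genes, 1 point per gene, in 8 lists at oxygen 1 and in starved cells, wild type in black and knockout in orange, with filled points for a limma adjusted p under 0.05. Proteases and chaperones lie mostly below 0 at oxygen 1, where 11 of 20 fell, and the highest points are Bnip3 at 4.48 and 4.66.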

How the data were processed

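RNA of 18 macrophage samples was read on 20 single-channel Agilent arrays. The scanner output the authors deposited holds, per the file headers, spot intensity after background subtraction within each array by Feature Extraction 10.7.3.1, with quality flags and no normalization between arrays. The authors' deposited value table holds log2 values, and the submitters' processing notes name limma. Here log2 processed signals were set against the 75th percentile of each array, repeat arrays of a sample were averaged, and flagged spots were left out (0.116% of values missing). Probes well above background in at least 3 samples were kept, and the brightest stood for a gene. Symbols came from transcript accessions (26049 of 39429 probes). A model of 6 group means over all 18 samples was fitted in R 4.3.3 with limma 3.58.1, with two-sided moderated tests and Benjamini-Hochberg adjustment over 20812 genes, a script tested on simulated data. Deposited files held no mean signal, so the normexp alternative used the median signal with an offset of 50. Other alternatives were a replicate block, a slide block, quantile normalization, the authors' table, other filters, probe averaging, first arrays and left-out samples.

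The members and lists were chosen with earlier results of these data known. Named genes are the 8 members, Egln3, the members' paralogs, up to 3 called genes of each list with the largest change, and the 3 genes most correlated with each member. The files label the dye once as biotin and once as Cy3. Promoter letters came from RefSeq, GRCm38.p6; the array design was built on another build, so no probe position is given.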

Additional observations from a re-analysis of the deposited data

How the results depend on the processing

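Counts of the 8 genes past the threshold in starved wild-type cells fell from 2 to 1 with normexp, with the filter on all 18 samples, under which Mgarp and Ndufa4l2 were not tested, and with probes averaged. In starved knockout cells the count fell from 2 to 1 with normexp and with the filter on all 18 samples, and ran from 1 to 3 with single samples left out, Mgarp being the third without wild-type control replicate 1. The count at least 2-fold higher at oxygen 1 in wild type fell from 5 to 3 with the filter on all 18 samples. In the knockout that filter also removed Mgarp and Ndufa4l2. With normexp, Ndufa4l2 was below 2-fold at oxygen 1 in both genotypes (log2 differences 0.76 and 0.78). The lowest value of Lonp1 in the knockout, 0.91, was also below 2-fold. The deviations of same-numbered samples from their group means had r from -0.33 to 0.48 over 45 pairs of samples, 15 above 0.1. In no pair of groups compared here did r exceed 0.1 for every replicate number. It was above 0 for every number in knockout controls with starved knockout samples (0.06 to 0.25). The same held for the genotypes at oxygen 1 (0.007 to 0.117). Knockout samples at oxygen 1 and starved ones, not compared with each other, exceeded 0.1 throughout (0.15 to 0.18). The replicate numbers were not taken as pairing. With a replicate block, the counts in starved cells stayed at 2 and 2 of 8. No member's called difference changed sign under the alternatives run, but Mtfr2 of the fission list read -1.29 at oxygen 1 and -0.15 when starved in the knockout with probes averaged. Over all genes, 1703 passed in starved wild-type cells without starved wild-type replicate 1, against 2606. Knockout against wild type in starved cells gave 2 genes with quantile normalization and 2 without starved knockout replicate 3, against 0. The causes of these changes were not tested, except that the stricter filter removes genes. Dim probes and 3 samples a group limit the precision.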
